A study of Mus musculus with 17 samples.

Results

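The fetal growth genes are a set of insulin-like growth factor genes and RNA regulators that are active before birth. They comprise the ligand Igf2, its imprinted neighbour H19, the receptors Igf1r and Igf2r, the mRNA-binding proteins Igf2bp1, Igf2bp2 and Igf2bp3, the let-7 inhibitor Lin28b, the chromatin protein Hmga2 and the transcription factor Sox17. Members were all probe sets of the array annotated to only 1 of these 10 symbols. This gave 26 of 45101 probe sets, for 8 of the 10 genes. Igf2bp2 had no such probe set, and the probe set for H19 was annotated to Mir675 as well. Of the 26, 25 lay above the lowest deposited intensity of 16, called the floor here, on at least 1 array.

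RNA of sorted mouse hematopoietic stem cells (HSCs) had been hybridized to 17 Affymetrix arrays in 5 groups. Fetal liver HSCs came from embryos at E15.5 (n = 3), and the labels give neither a genotype nor an injection for them. Adult HSCs were taken at day 7 (control n = 3, knockout n = 3) or day 21 (control n = 4, knockout n = 4) after pIpC, a synthetic RNA used to induce a Cre recombinase, which the control mice received too. The titles name the knockout (KO) as C/EBPa KO, whereas the genotype field of the same samples gives Pu.1 knock-in (PU.1ki/ki), and that of the controls wild type; the labels name neither the Cre line nor the targeted allele. The adult sort was lin-, sca1+, ckit+, CD150+ and CD48-, and the fetal sort also took Mac-1 low cells. Stage, tissue, sort and pIpC differed together between fetal and adult HSCs, so their parts cannot be told apart.

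IGF2 is a secreted growth factor that drives fetal growth through the receptor kinase IGF1R, while IGF2R binds the ligand and delivers it to lysosomes. In mice Igf2 is transcribed from the paternal allele and H19 from the maternal allele of a shared domain. LIN28B blocks the maturation of let-7 microRNAs, which repress the mRNAs of Hmga2 and of IGF2BP family members; in mouse HSCs this pathway and Sox17 are known for roles in fetal self-renewal and lineage output.

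On the check of the labels, Cebpa ranged from 20.72 to 32.03 on the KO arrays and from 136.5 to 315.3 on the control arrays at day 7. At day 21 it ranged from 24.97 to 39.83 in KO and from 115.3 to 532.5 in control HSCs. KO and control ranges were apart on both days. The log2 difference was -2.73 (SE 0.55) on day 7, with an adjusted p of 0.248 by limma, and -2.82 (SE 0.48) on day 21, with 0.0743. Spi1, the gene for PU.1, overlapped between KO and control at both days. Median intensity per array ranged from 39.44 to 53.15 and between 20.4% and 25.2% of an array's probe sets were at the floor. The sort and identity markers were above the floor on every array for all 10 genes measured, and their summed intensity was 8204 to 11320 in fetal and 5948 to 11900 in adult HSCs. Single markers were less even. Slamf1, the gene for CD150, read 581.9, 37.76 and 139.8 on fetal replicates 1 to 3 and 111.4 to 1049 on adult arrays. Tek read 20.06, 305.2 and 902.9, against 72.84 to 533. Mllt3 was above the adult range on fetal replicate 3, and the remaining markers were within it on all fetal arrays. Whether the replicates of a group are different animals or pools is not in the labels, and the p-values cover the variation among the hybridized samples alone.

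Fetal liver HSCs were set against the mean of both control groups to ask which members differ between fetal and adult stem cells. Of the 25 member probe sets tested, 13 were called higher in fetal HSCs at limma's adjusted p under 0.05 and 0 lower, against 1.46% of all 40023 probe sets called higher and 1.61% called lower. They belonged to 6 of the 7 genes tested: Igf2, Igf2r, Igf2bp1, Igf2bp3, Hmga2 and Sox17. Of the 25, 5 were at the floor on all 14 adult arrays and were tested only because of fetal values, so they could not come out lower; the sole Sox17 call (1429177_x_at) and 1 Igf2bp1 call (1455223_at) are among them. Among probe sets above the floor on at least 3 arrays, 11 of 20 were called higher, and none of Sox17. With that filter 1217 probe sets of the whole array were called in either direction, beside 1228 in the main fit. The median log2 difference was 2.00 over the 25, and -0.003 over all probe sets. On 12 of the 25 the 3 fetal arrays lay above all 7 control arrays, against 2.8% of all probe sets, and on 0 below them (2.78%). On 10 of the 25 they lay above all 14 adult arrays, against 1.09%, and on 0 below (1.35%). Probe sets of the same gene share its transcript, so these counts are not counts of independent genes. The members were also chosen with earlier results of these data known. The shares over all probe sets are therefore given for scale and are no independent test of the set.

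**Figure D1:**
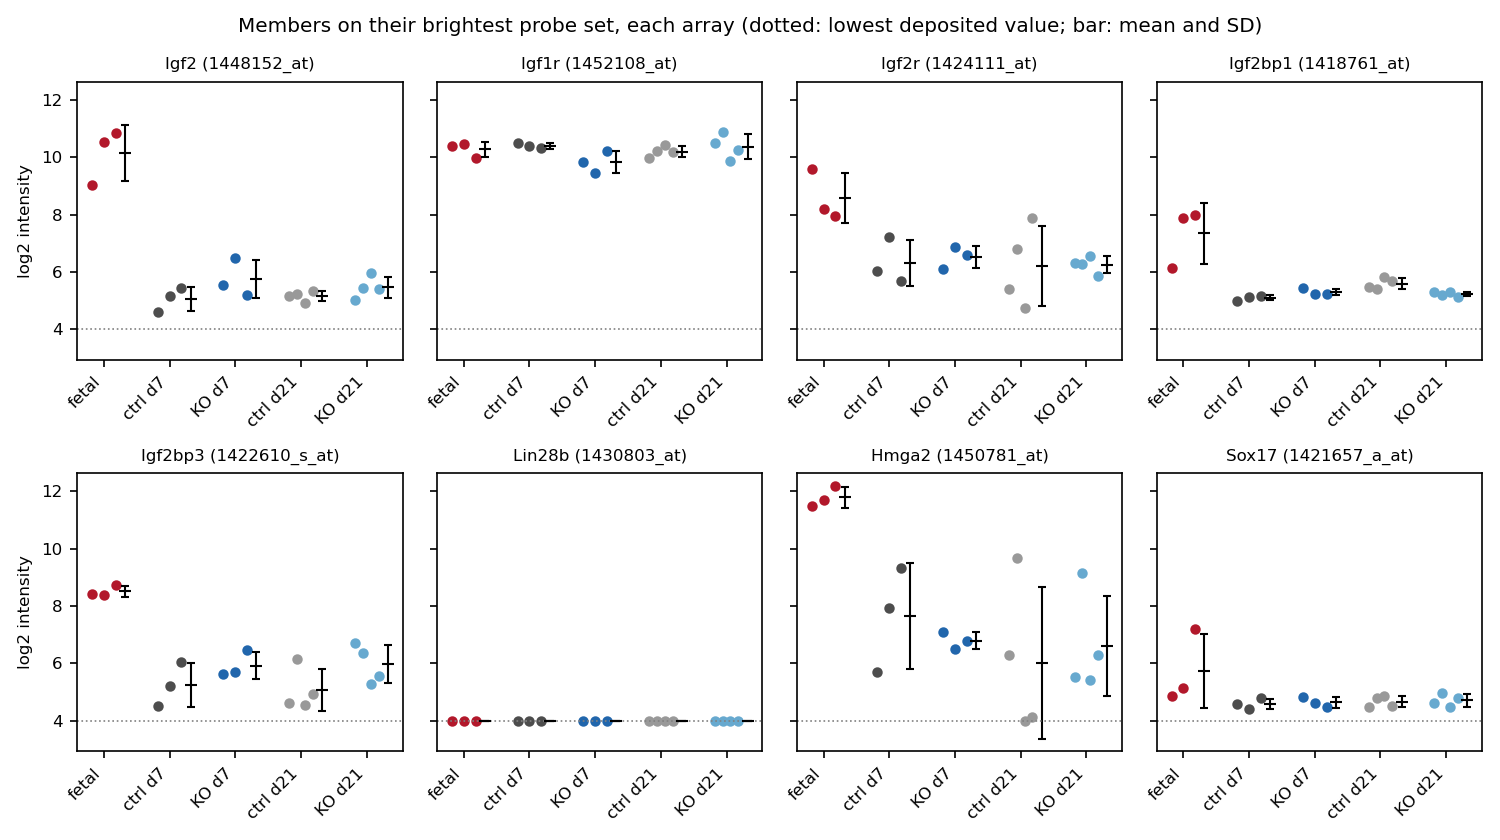
Log2 intensity (vertical axis) of each member with a probe set of its own, on its probe set of highest mean, by group; points are arrays, bars the group mean and SD, and the dotted line is the floor, 4 on this scale. The 3 fetal points lie above all adult points for Igf2, Igf2r, Igf2bp1, Igf2bp3 and Hmga2, while Igf1r overlaps between all neighbouring groups and Lin28b is at the floor on all 17 arrays.

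Igf2, the growth factor itself, was measured by 2 probe sets. On 1448152_at its intensity was 523.3, 1478 and 1847 on fetal replicates 1 to 3. In controls it was 24.29, 35.44 and 43.12 at day 7, and 35.9, 37.5, 30.2 and 40.77 at day 21. In KO HSCs it was 46.91, 90.62 and 36.86 at day 7, and 32.7, 43.34, 62.27 and 42.6 at day 21. The lowest fetal array was thus far above the highest adult array, and the 4 adult groups overlapped. The log2 mean was 10.14 ± 0.97 (SD, n = 3) in fetal HSCs, and the difference from control was 5.03 (SE 0.37, 95% interval 4.23 to 5.82, adjusted p = 5e-06 by limma). That SE rests on 1 spread shared by all groups. The fetal SD was wider than the SD of 0.457 over the adult arrays, so the precision is overstated.

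The other Igf2 probe set, 1415931_at, gave 909.7, 1921 and 2537 in fetal HSCs, and 10 of the 14 adult arrays were at the floor. Its log2 difference from control was 6.34 (SE 0.52, adjusted p = 1.3e-05 by limma). At the floor were 3 of 3 control arrays at day 7 and 3 of 4 at day 21, and no fetal array. That difference is therefore a lower bound, and its SE leaves out any spread below the floor. Fetal replicate 1 was the lowest of the fetal arrays on both probe sets. Both calls held in each of the 10 fits that left out 1 array.

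Igf2 lies on mouse chromosome 7 (chr7:142650768-142666816 in GRCm38.p6). RefSeq's promoter table for this build gives 4 Igf2 starts, and the sequence of the start nearest the 3′ end of the gene is shown since it holds the most motif matches of the 4. It runs from 250 bases before to 50 bases after the start. Capitals here and in the other promoters mark matches on either strand to the GC box GGGCGG, the CCAAT box, the E-box CACGTG, the TATA box TATAAA and the C/EBP core TTGCNNAA.
Igf2 promoter, chr7:142657447-142657746, minus strand: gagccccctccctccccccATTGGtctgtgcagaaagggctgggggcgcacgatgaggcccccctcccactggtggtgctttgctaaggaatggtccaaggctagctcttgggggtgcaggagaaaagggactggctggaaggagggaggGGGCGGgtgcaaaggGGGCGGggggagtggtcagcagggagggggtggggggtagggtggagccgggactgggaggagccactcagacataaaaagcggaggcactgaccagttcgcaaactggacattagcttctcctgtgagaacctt
This promoter holds 2 GC boxes and 1 CCAAT box, motifs found in 35.7% and 37.4% of all 32851 promoters of this length. The C/EBP core occurs in 10.8% of them and in none of the 10 promoters of the 7 members in the table. A match describes these letters only.

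The probe set annotated to both Mir675 and H19, which is attributed to neither alone, gave 4943, 8747 and 8394 in fetal HSCs and 16.62 to 118 in adult HSCs. H19 is a long noncoding RNA (chr7:142575530-142578146) and the host of the microRNA Mir675. As with Igf2, fetal replicate 1 was the lowest fetal array and no adult array came near the fetal ones. The log2 difference from control was 7.95 (SE 0.49, adjusted p = 1.24e-06 by limma).

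Igf1r, the receptor kinase that carries the IGF2 signal, read above the floor on every array and was not called on any of its 5 probe sets. On 1452108_at the fetal arrays read 1352, 1403 and 1011, and the 14 adult arrays ran from 693.3 to 1872 with a median of 1200. Fetal and adult values overlapped, with a log2 difference from control of -0.02 (95% interval -0.47 to 0.44). On 1428967_at the fetal arrays read 588.1, 853.2 and 593.5 against 668.5 to 1477 in controls. This difference was -0.68 (SE 0.22, adjusted p = 0.116 by limma). It passed the threshold, as lower, only without the farthest array of each control group (adjusted p = 0.0448) and without control day 7 replicate 1 alone (-0.83, adjusted p = 0.0337). On 1452982_at, 1426565_at and 1446303_at the log2 differences from control were -0.50, -0.08 and 0.61, and fetal and control values overlapped.

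Igf2r, the receptor that removes IGF2, is imprinted in mouse and lies on chromosome 17 (chr17:12682406-12769706). On 1424111_at the fetal arrays read 770.8, 290.4 and 249.3. Controls read 64.87, 150.7 and 51.93 at day 7 and 42.55, 111.8, 27.13 and 234.8 at day 21, and the 7 KO arrays lay between 57.69 and 116.1. Fetal HSCs were above all adult arrays, but fetal replicate 3 was close to control day 21 replicate 4. The log2 difference was 2.31 (SE 0.58, adjusted p = 0.0489 by limma), and the call held in only 3 of the 10 fits that each left out 1 array. Leaving out fetal replicate 1 gave the highest adjusted p, 0.187.

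The second Igf2r probe set, 1424112_at, overlapped between fetal and control HSCs, because control day 7 replicate 2 read 453.2 while the fetal arrays read 215.5, 836.1 and 257.7. Its log2 difference was 2.67 (SE 0.88, adjusted p = 0.131 by limma), and it was called without that control array (3.30, adjusted p = 0.0343). A further probe set shared with Airn, the antisense RNA that silences paternal Igf2r in mouse, differed by 0.20 (SE 0.14, adjusted p = 0.553). The 3 probe sets therefore did not give the same call.

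Igf2bp1 encodes a protein that binds mRNAs, among them that of Igf2, and had 4 probe sets. On 1418761_at it read 70.22, 237.3 and 255.8 in fetal HSCs and between 32.13 and 56.11 on the 14 adult arrays. Fetal replicate 1 was the lowest fetal array and still exceeded each adult array. The log2 difference from control was 2.00 (SE 0.30, adjusted p = 0.00202 by limma). A second, 1459825_x_at, differed by 1.78 (SE 0.29, adjusted p = 0.00425). Both calls were lost in the fit of only the groups compared (adjusted p = 0.055 and 0.0622).

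The dimmer Igf2bp1 probe sets were less uniform. On 1455223_at all 14 adult arrays were at the floor and 2 of 3 fetal arrays above it, at 228.1 and 90.21. The fitted log2 difference was 2.11 (adjusted p = 0.047 by limma), which is no bound, since fetal replicate 2 was at the floor as well. The call was kept in 1 of the 10 fits that left out 1 array (highest adjusted p over all alternatives 0.231). On 1449210_at, with fetal values of 41.95, 19.84 and 148, the adjusted p was 0.0534, and 0.00247 without fetal replicate 2.

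Igf2bp3, which belongs to the same family and is mostly silent in adult tissues, was measured by 6 probe sets. On 1422610_s_at it read 343.5, 333.6 and 424.8 in fetal HSCs. Controls read 23.1, 36.84 and 66.71 at day 7 and 24.69, 70.51, 23.74 and 30.98 at day 21. KO HSCs read 49.07, 51.96 and 87.73 at day 7 and 104.1, 82.73, 38.76 and 46.97 at day 21. All adult arrays lay below the fetal arrays, and the fetal arrays differed among themselves by 1.27-fold. The log2 difference from control was 3.34 (SE 0.41, adjusted p = 0.000424 by limma).

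On 1453957_a_at, Igf2bp3 read 69.48, 197.3 and 156.1 in fetal HSCs and at most 20.55 in adult HSCs (log2 difference 2.89, SE 0.24, adjusted p = 1.38e-05 by limma). Its log2 SD was 0.79 in fetal HSCs and 0.138 over the adult arrays, which lay near the floor, so that precision is overstated. The calls of these 2 probe sets held in each of the 10 fits that left out 1 array. The call of another probe set, 1422611_s_at (3.40, SE 0.68, adjusted p = 0.0154), was lost without fetal replicate 1 (0.0649). Its other 3 probe sets, 1450687_at, 1433732_x_at and 1433731_at, were at the floor on 12 to 14 of the adult arrays and were not called. The fetal arrays were less even on the brightest of these, 1450687_at, at 148.9, 18.3 and 16.

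The Igf2bp3 promoter (GRCm38.p6) is shown since only it and that of Igf2r held E-boxes among the called members in the promoter table. Igf2bp1 and Sox17, also called, have no promoter in that table and were not searched.
Igf2bp3 promoter, chr6:49214905-49215204, minus strand: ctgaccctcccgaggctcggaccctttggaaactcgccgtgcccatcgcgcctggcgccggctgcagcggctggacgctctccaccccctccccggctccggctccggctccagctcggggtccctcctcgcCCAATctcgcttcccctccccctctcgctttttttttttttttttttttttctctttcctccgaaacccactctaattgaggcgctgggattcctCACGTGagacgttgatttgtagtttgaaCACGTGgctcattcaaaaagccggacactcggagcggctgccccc
It holds 1 CCAAT box and 2 E-boxes. An E-box of these letters occurs in 7.15% of all promoters in the table.

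Lin28b, the inhibitor of let-7 maturation, was measured by 1430803_at alone. This probe set was at the floor of 16 on all 17 arrays, fetal arrays included. The value is an upper bound for this probe set, and no difference between groups could be measured with it. Levels of let-7 microRNAs were not analysed here, but their sequences show the seed that defines them as 1 family. In RefSeq's GRCm38.p6 table, 11 mouse mature miRNA names share the seed at bases 2 to 8, in capitals: 9 let-7 members, miR-98-5p and miR-1961. The 3 shown differ outside the seed, let-7d-5p also in its first base.
mmu-let-7a-5p: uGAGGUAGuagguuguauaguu
mmu-let-7d-5p: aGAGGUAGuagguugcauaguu
mmu-let-7g-5p: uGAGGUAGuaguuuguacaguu

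Hmga2, an architectural chromatin protein whose mRNA is a classical let-7 target, had 3 bright probe sets. On 1422851_at it read 3741, 4337 and 5324 in fetal HSCs. Controls read 246.8, 38.37 and 84.08 at day 7 and 183.1, 243.5, 41.89 and 25.32 at day 21. KO HSCs read 290.8, 80.99 and 84.17 at day 7 and 52.56, 324.7, 35.13 and 27.41 at day 21. The lowest fetal array was far above the highest adult array, and the fetal arrays differed by 1.42-fold where the adult arrays differed by 12.8-fold. The log2 difference from control was 5.66 (SE 0.88, 95% interval 3.77 to 7.55, adjusted p = 0.00268 by limma).

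On 1450780_s_at the difference was 5.13 (SE 0.56, adjusted p = 0.000146 by limma), with fetal values of 1918, 2318 and 3236 and adult values of 35.2 to 203.9. On 1450781_at the fetal arrays read 2855, 3318 and 4693, and adult arrays ran from 16 to 810.1. That last probe set had a difference of 4.95 (SE 1.15, adjusted p = 0.0351), and its call was kept in 3 of the 10 fits that each left out 1 array. The first 2 kept their calls in all 10. The fourth, 1446196_at, was at the floor on all adult arrays and read 16, 133 and 24.07 in fetal HSCs (adjusted p = 0.173, and 0.0292 without fetal replicate 1).

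**Figure D2:**
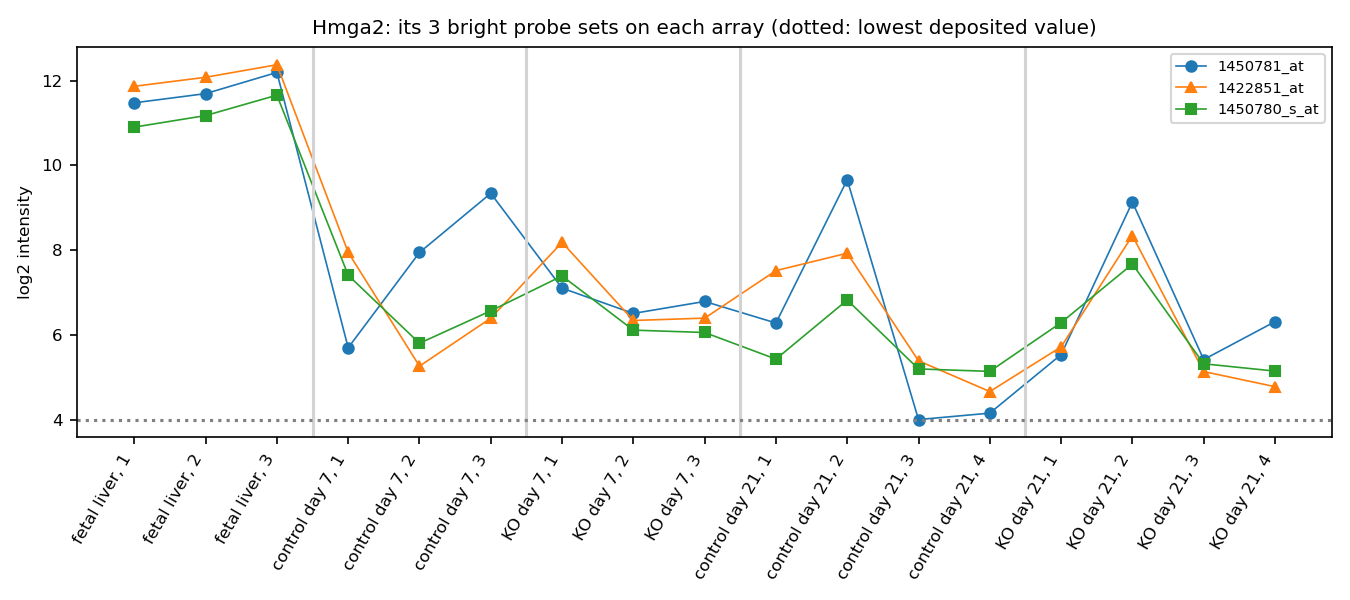
Log2 intensity (vertical axis) of Hmga2 on its 3 bright probe sets, for each of the 17 arrays (horizontal axis: group and replicate; lines join the arrays of a probe set only to guide the eye). All 3 are above 10 on the fetal arrays; among the adult arrays control day 21 replicate 2 and KO day 21 replicate 2 are high on all 3, and control day 7 replicate 3 reads 649 on 1450781_at but 84.08 on 1422851_at.

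Hmga2 lies on mouse chromosome 10 (chr10:120361268-120476469), and its promoter is shown because it was among the members with the widest fetal difference.
Hmga2 promoter, chr10:120476420-120476719, minus strand: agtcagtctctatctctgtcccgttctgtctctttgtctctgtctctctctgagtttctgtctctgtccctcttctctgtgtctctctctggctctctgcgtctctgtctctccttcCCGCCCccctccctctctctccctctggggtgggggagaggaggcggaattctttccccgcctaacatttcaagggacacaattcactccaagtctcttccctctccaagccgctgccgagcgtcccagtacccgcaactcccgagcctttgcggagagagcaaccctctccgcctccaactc
It holds 1 GC box and none of the other motifs searched.

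Sox17 encodes a transcription factor known to be required for fetal but not adult mouse HSCs, and it is also an arterial endothelial factor. On 1421657_a_at it read 29.15, 35.21 and 148.5 in fetal HSCs and 21.5 to 31.65 in adult HSCs. Only fetal replicate 3 stood well above the adult range. The log2 difference from control was 1.11 (SE 0.37, adjusted p = 0.138 by limma), and 1.54 without fetal replicate 1 (adjusted p = 0.0443). On 1429177_x_at all adult arrays and fetal replicate 1 were at the floor, while fetal replicates 2 and 3 read 123 and 158.6. The fitted log2 difference was 2.08 (adjusted p = 0.0366), again no bound, and the call was kept in 2 of the 10 fits that left out 1 array (highest adjusted p 0.173, without fetal replicate 2).

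The fetal arrays were not equal in markers of other cells of the liver. The whole hepatocyte list (16 genes measured) summed to 1229, 14250 and 9601 on fetal replicates 1 to 3 and to 680.6 to 2117 on adult arrays, with 5 of 16 genes called higher and 0 lower for fetal liver against control; over all genes 1.65% were called higher and 1.67% lower. The endothelial list (14 genes) summed to 4461, 14910 and 18220, against 1573 to 3800, with 8 of 14 called higher. The macrophage list (13 genes) summed to 7569, 3424 and 5125, against 358.9 to 1305, with 5 of the 12 tested called higher. These 5 were C1qb, Mrc1, Cd5l, Marco and Hmox1, with log2 differences of 5.999, 4.94, 3.61, 2.32 and 3.86 and no overlap with control, whereas Vsig4 was at the floor on all 17 arrays and Cd163 on all 3 fetal arrays. In bulk samples, fewer cells of a type and less RNA per cell cannot be told apart.

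The summed stromal list (13 genes) was 663.1, 1829 and 1793 in fetal and 518.5 to 2000 in adult HSCs, with 2 of 13 called higher. The erythroid list (10 genes) summed to 6883 to 10110 in fetal and 1088 to 6776 in adult HSCs, with 7 of 10 called higher. Fetal replicate 1 was the lowest fetal array on 14 of the 25 member probe sets, among them both of Igf2, all 4 of Hmga2, both of Sox17, 2 of Igf2bp1 and 1 of Igf2bp3, and on that of H19 with Mir675. The hepatocyte, endothelial and stromal sums were lowest on it too; the part of these cells in the members' differences was not tested. On that array the hepatocyte sum of 1229 was within the adult range, and 2 of the 16 genes, Apoa1 and Apoc3, were above all adult arrays (Apoa1 at 339.1, adult maximum 240.9). Alb read 122.6 (adult maximum 323.7) and Afp 46.15 (adult maximum 168.3). On fetal replicates 2 and 3, 14 and 12 of the 16 were above all adult arrays. The endothelial sum of 4461 on fetal replicate 1 was above the adult range, with 7 of 14 genes above all adult arrays, among them Lyve1 at 485.2 and Oit3 at 352.2.

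**Figure D3:**
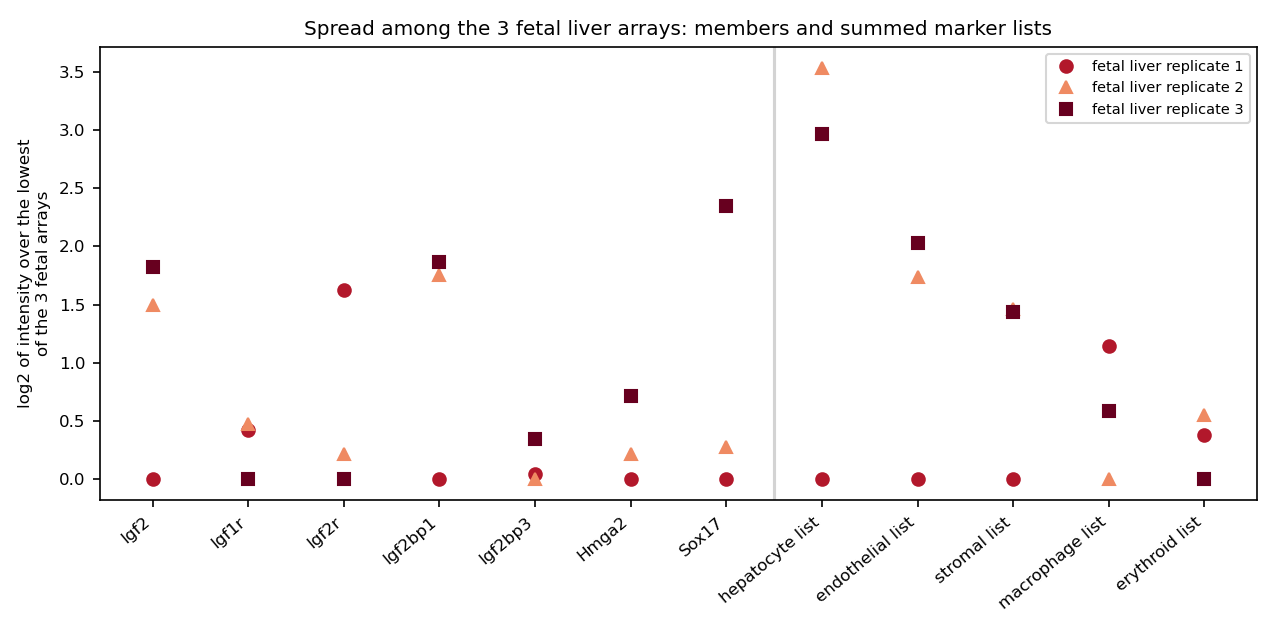
Spread among the 3 fetal arrays: log2 of the intensity over the lowest of the 3 (vertical axis), for 7 members on their probe set of highest mean and for the summed intensity of 5 marker lists (horizontal axis), with 1 symbol per fetal replicate. Igf2bp3 (1422610_s_at) and Hmga2 (1450781_at) spread by 1.27-fold and 1.64-fold, Igf2 (1448152_at) by 3.53-fold, and the hepatocyte and endothelial sums by 11.6-fold and 4.08-fold. The stromal, macrophage and erythroid sums spread by 2.76-fold, 2.21-fold and 1.47-fold. Igf2bp3 on 1422611_s_at and 1453957_a_at, not drawn, spread by 2.22-fold and 2.84-fold.

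By the distance between centred log2 profiles over the 17 arrays, as a description over 10881 genes, the genes most like Igf2 were Fabp4, Oit3 and Lyve1, at root mean square distances of 0.43, 0.62 and 0.65. Oit3 and Lyve1 are also in the endothelial list. Those most like Hmga2 on 1450781_at were Plagl1 (1.01), Igf2bp3 (1.55) and Cpd (1.56). Those most like Igf2bp3 were Dlc1 (0.65), Mtfr1 (0.71) and Calcrl (0.71). For Lin28b no profile could be compared, since it was at the floor throughout.

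Fetal HSCs were also set against the mean of both KO groups. This comparison shares its 3 fetal arrays with the one against control, so both are given side by side and are not independent. Of the 25 probe sets, 10 were called higher and 0 lower (0.837% of all probe sets called higher, 1.12% lower), and on 11 fetal HSCs lay above all KO arrays (2.91%) and on 0 below (3.75%). Genes with a call were Igf2, Igf2bp1, Igf2bp3, Hmga2 and Sox17, and all 10 probe sets were also called against control. The Sox17 call rests on 1429177_x_at alone (adjusted p = 0.0473), which was at the floor on all adult arrays; its other probe set had an adjusted p of 0.206. Igf2 on 1448152_at differed by 4.53 from KO HSCs (SE 0.37, adjusted p = 1.52e-05 by limma) and by 5.03 from control HSCs. Hmga2 on 1422851_at differed by 5.63 from KO and 5.66 from control. Igf2bp3 on 1422610_s_at differed by 2.56 from KO (adjusted p = 0.0044) and 3.34 from control.

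Igf2r on 1424111_at was not called against KO (2.19, SE 0.58, adjusted p = 0.0785), nor was Igf2bp3 on 1422611_s_at (2.17, SE 0.68, adjusted p = 0.15). Igf2bp1 on 1455223_at had the same fitted difference of 2.11 against KO, with an adjusted p of 0.0603. These 3 probe sets were called against control alone; the differences of KO from control are tested below.

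**Figure D4:**
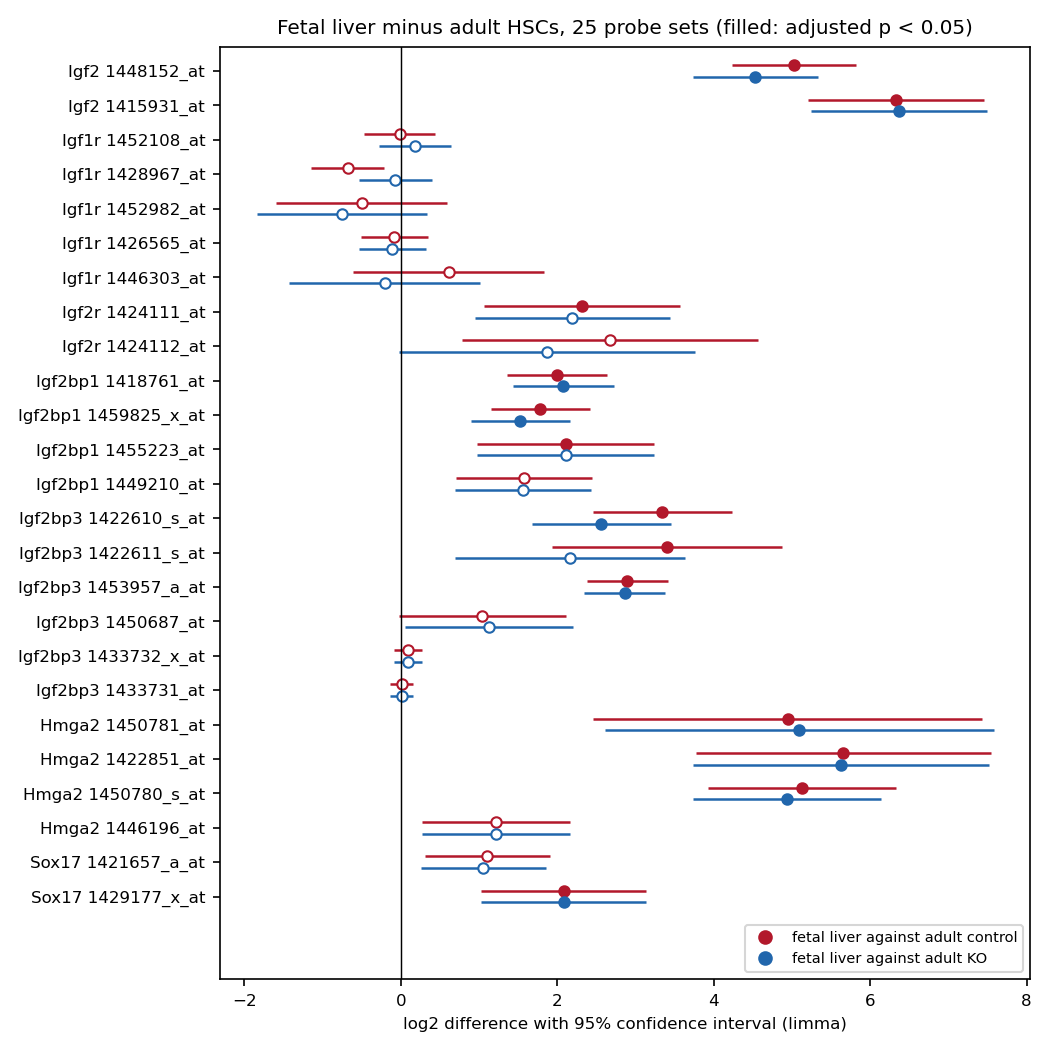
Log2 difference of fetal from adult HSCs (horizontal axis) with its 95% confidence interval from limma, for each of the 25 member probe sets (rows), against adult control (red) and adult KO (blue); filled points have an adjusted p under 0.05. The 2 Igf2 and the 3 bright Hmga2 probe sets lie between 4.53 and 6.37, and the 5 Igf1r probe sets between -0.75 and 0.61.

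The KO comparisons ask whether loss of C/EBPa, as named in the titles, changes these genes in adult HSCs. At day 7, 0 of 25 member probe sets were called by limma (0.0025% of all probe sets), and 2 had an unadjusted p under 0.05 (6.69% of all probe sets did). KO lay above control without overlap on 2 (6.73% of all) and below on 1 (6.24%). At day 21, 0 were called (0.03%), 1 had an unadjusted p under 0.05 (9.35% of all), and the groups did not overlap on 0 higher (3.13%) and 2 lower (2.03%). No member was called at either day in any of the alternatives tried.

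Igf2 on 1448152_at differed between KO and control by 0.69 at day 7 (95% interval -0.25 to 1.63) and 0.30 at day 21 (-0.52 to 1.11). The intervals include 0 and end well below the fetal difference of 5.03. Hmga2 on 1422851_at differed by 0.44 (-1.79 to 2.67) and -0.38 (-2.31 to 1.55), with intervals that leave room for changes of several fold. KO values of both genes overlapped those of control at both days.

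Igf1r had the smallest p of the members in the KO comparisons. On 1428967_at the KO arrays at day 21 read 926.3, 768.1, 591.4 and 640.3 and the controls 1123, 1065, 1171 and 1273. All KO arrays were below all controls, with a log2 difference of -0.68 (SE 0.22, adjusted p = 0.338 by limma). At day 7 the same probe set read 761.9, 637.8 and 655.1 in KO and 668.5, 1477 and 993 in control HSCs, which overlapped (-0.54, SE 0.26, adjusted p = 0.753).

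On 1452108_at, Igf1r was below control without overlap at day 7 (912, 693.3 and 1195 against 1448, 1335 and 1265; -0.57, SE 0.25, adjusted p = 0.728) and overlapped at day 21 (0.17, SE 0.22). On 1446303_at KO read 206.3, 118.5 and 115.2 at day 7 and control 49.09, 60.18 and 47.77, the opposite direction (1.44, SE 0.67, adjusted p = 0.744). The probe sets of Igf1r thus disagreed in direction at day 7.

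Igf2bp1 on 1418761_at lay above control without overlap at day 7 (0.20, SE 0.35) and below it at day 21 (-0.36, SE 0.31), with adjusted p of 1 and 0.756. Igf2bp3 on 1422610_s_at read higher on average in KO HSCs, by 0.66 on day 7 (SE 0.49, adjusted p = 0.885 by limma). On day 21 it was higher by 0.90 (SE 0.42, adjusted p = 0.537), and the groups overlapped on both days. On 1422611_s_at the differences at day 7 and day 21 were 1.55 (SE 0.81, adjusted p = 0.796) and 0.91 (SE 0.70, adjusted p = 0.729), again with overlap. There KO day 7 replicate 1 read 258.3, above fetal replicate 2 at 229.6. The differences were 0.07 and -0.005 on 1453957_a_at, and -0.19 and 0.02 on 1450687_at. The remaining Igf2bp3 probe sets were at the floor on all adult arrays. Lin28b was at the floor in KO and control HSCs alike, as was Sox17 on 1429177_x_at.

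**Figure D5:**
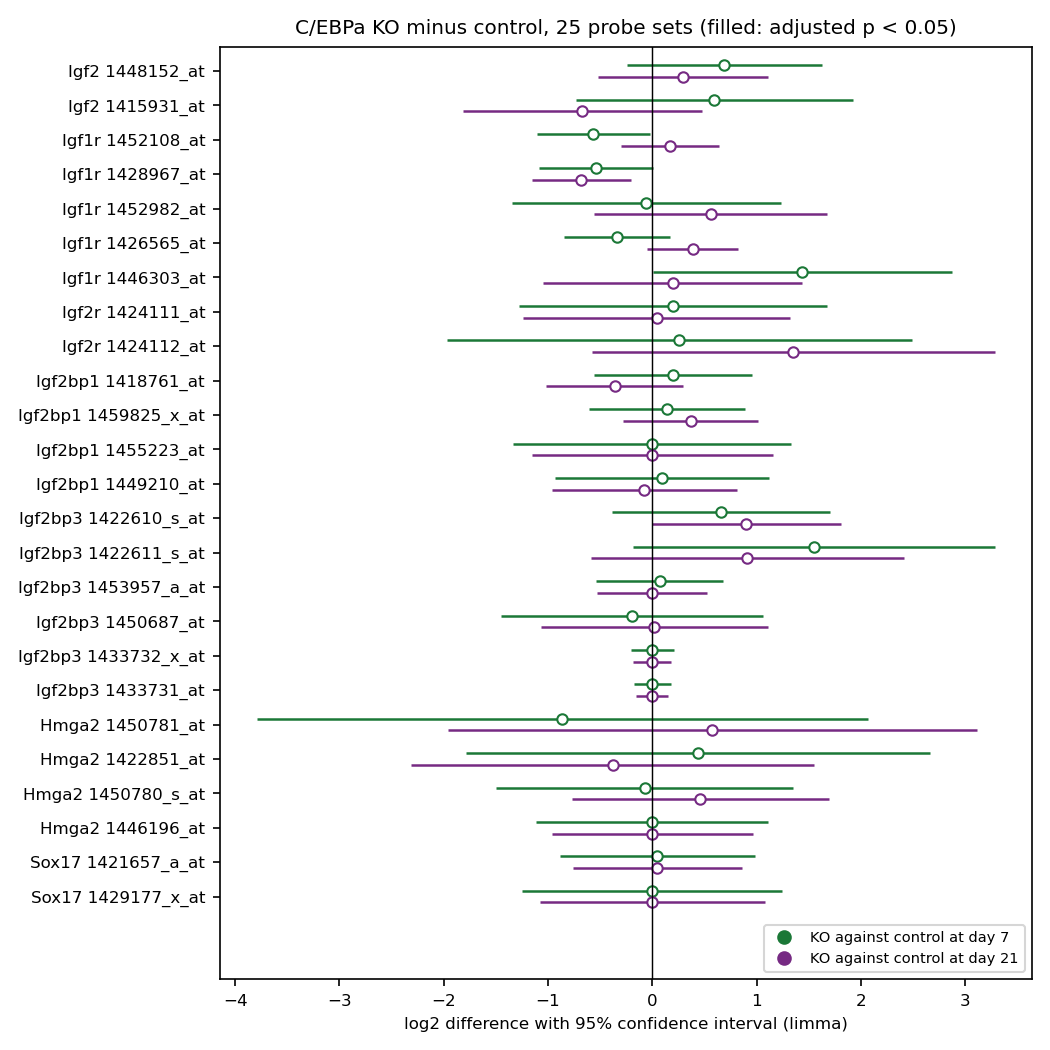
Log2 difference of KO from control (horizontal axis) with its 95% confidence interval from limma, for the 25 member probe sets (rows) at day 7 (green) and day 21 (purple); open points are those not called, which is all of them. Differences run from -0.86 to 1.55 at day 7 and from -0.68 to 1.35 at day 21.

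Between the control groups, day 21 against day 7, 0 of 25 were called (0.05% of all probe sets) and 0 had an unadjusted p under 0.05 (7.53%). Day 21 lay above day 7 without overlap on 1, Igf2bp1 on 1418761_at (0.49, SE 0.33, adjusted p = 0.781), against 2.27% of all probe sets, and below it on 0 (3.42%). The difference of the KO effects between the days was called for 0 of 25 (0.0025%), with 2 at an unadjusted p under 0.05 (4.71% of all), both of Igf1r. On 1452108_at that difference was 0.74 (SE 0.33) and on 1426565_at 0.73 (SE 0.31), each with an adjusted p of 1.

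Ordered by group mean, fetal liver stood first and apart from the next group for both Igf2 probe sets and the 3 bright Hmga2 probe sets. The same held for Igf2r on 1424111_at and 1424112_at, Igf2bp1 on 1418761_at and 1459825_x_at, and Igf2bp3 on 1422610_s_at and 1453957_a_at. For each of these probe sets the 4 adult groups behind fetal liver overlapped with their neighbours in that order. On Igf2r 1424112_at fetal liver still overlapped with control day 7, which was not the next group. For Igf1r on 1452108_at the order was control day 7, KO day 21, fetal liver, control day 21 and KO day 7, with overlap between all neighbours.

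Genes of the same pathways were counted from 5 lists of 118 entries, of which 104 were tested, each on its probe set of highest mean. For fetal liver against control, 1.65% of all 16785 genes were called higher and 1.67% lower. Of 28 genes of the IGF axis, 2 were higher and 1 lower, with a median log2 difference of 0.16 against 0.02 over all genes. Igf1, the sister ligand of Igf2, rose by 2.92 (SE 0.44, adjusted p = 0.00201 by limma), with fetal values of 1002, 225.2 and 510.8, highest on fetal replicate 1. The macrophage sum was also highest on that array, and its part was not tested. Igfbp3, which binds IGFs in the circulation, was called higher (adjusted p = 0.0466) with all control arrays at the floor. Fetal and control values overlapped, so the fetal arrays reached down to the floor as well, and this difference is no bound. Akt2, a kinase downstream of the receptors, fell by 1.15 (SE 0.25, adjusted p = 0.0241).

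Of 24 genes around LIN28 and let-7, 2 were higher and 2 lower, with a median of 0.26. Dna2, a nuclease and helicase of DNA replication, rose by 1.70 (adjusted p = 0.00679 by limma), and Nras, a RAS protein, by 0.94 (adjusted p = 0.0352). Zcchc6, an enzyme that adds uridines to RNAs including let-7 precursors, fell by 1.98 (adjusted p = 0.00696), and the cell cycle kinase gene Cdk6 fell by 1.65 (adjusted p = 0.000896). Fetal and control values overlapped for Nras and Zcchc6, but not for Dna2 and Cdk6. Of 17 RNA-binding partners of the IGF2BP family, 0 were called in either direction, with a median of -0.08.

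Of 18 genes in or acting on the Igf2 and H19 domain, 1 was higher and 0 lower. It was Plagl1, an imprinted zinc finger factor known to activate imprinted growth genes, at 810.8, 1899 and 1178 in fetal HSCs (4.77, SE 0.94, adjusted p = 0.0134 by limma). Of 17 genes with Sox17 and other fetal stem cell regulators, 1 was higher and 3 lower. Sox18, a close relative of Sox17 in endothelium, rose by 3.59 (SE 0.68, adjusted p = 0.011), though its fetal and control values overlapped. The endothelial sum was higher too, and its part was not tested. Gata2 fell by 1.59 (adjusted p = 0.00031), Erg by 0.83 (adjusted p = 0.00936) and Cebpa by 2.08 (adjusted p = 0.0284). In KO against control, 0 genes of the 5 lists were called at day 7 (0% of all genes) or day 21 (0.0238%).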

How the data were processed

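RNA of sorted HSCs was measured on 17 arrays in 5 groups taken from the sample titles. The values are the authors' deposited intensities, linear and with 1 value for each probe set. Per the submitters' processing notes RMA was used, with no role or version given; the sources used here give no further steps. For testing, log2 of the deposited intensity was taken without a pseudocount, and the lowest value, 16, is 4 on this scale. Values at this floor are upper bounds, and a difference between groups that both hold such values is no bound. Arrays give no count depth, so precision rests on how many were run.

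Gene names came from the platform annotation of the probe sets, with locations and promoter and miRNA sequences from RefSeq tables of GRCm38.p6; 7 members matched the promoter table. The 40023 probe sets above the floor on at least 1 array, controls left out, were fitted with limma 3.58.1 in R 4.3.3 (lmFit, eBayes, 1 mean per group, residual df 12) and adjusted over all of them by Benjamini-Hochberg. All adjusted p-values are limma's, with calls under 0.05. Each probe set had 1 spread estimate, shared by all 5 groups. Where fetal arrays spread more than adult arrays, the SE, interval and p-value overstate the precision of a fetal difference. Igf2bp1 1418761_at was such a case, with a log2 SD of 1.047 in fetal and 0.222 over adult arrays. On Hmga2 1422851_at the adult arrays spread more (0.256 in fetal, 1.329 in adult). On simulated data of 40023 probe sets, 67 were changed 2-fold, 67 were changed 4-fold and 66 were changed 16-fold. All of these were drawn from probe sets above the median in mean intensity. The comparison of fetal liver with control recovered 14.9% of the 2-fold, 34.3% of the 4-fold and 78.8% of the 16-fold changes. Recovery for dimmer probe sets, such as those near the floor, was not simulated.

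Members and lists were chosen with earlier results of these data known. By the rule for named genes, all members were named on each probe set, Cebpa and Spi1 as a label check, and up to 4 called genes per direction of each pathway list for fetal liver against control and for both KO comparisons; the 3 nearest profiles were named for Igf2, Hmga2 and Igf2bp3. Alternatives were other scalings, filters, fits and the leaving out of arrays. The alternative without the farthest array of each control group was chosen after seeing the data. Same-numbered arrays of different groups did not deviate together (31 pairs, correlations of deviations -0.03 to 0.08), so no pairing was assumed.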

Additional observations from a re-analysis of the deposited data

Results flagged for a closer look

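The probe set annotated to both Mir675 and H19 lies outside the member rule and was higher in fetal than in control HSCs, with a log2 difference of 7.954 (SE 0.49, adjusted p = 1.24e-06 by limma), with 16.62 to 118 on the adult arrays and 4943 or more on the 3 fetal arrays.

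In 5 of 39 groups of 4 arrays, 1 array passed Dixon's 95% limit for its gap to the other 3. In 4 of the 5 the other 3 arrays were tied at the floor, where any value above it passes, however close, so the usual chance rate of about 1 in 20 groups does not apply to them. On the Igf2 probe set 1415931_at, control day 21 replicate 4 read 109.7 with the other 3 at 16. On the other Igf2 probe set, 1448152_at, that array read 40.77 and the rest of its group 35.9, 37.5 and 30.2. The same array had the highest hepatocyte and stromal sums of the adult arrays, 2117 and 2000, and their part was not tested. On 1415931_at, KO day 21 replicate 3 read 17.1 with the others at 16. On Igf2bp1 1449210_at, control day 21 replicate 2 read 19.85 with the others between 16 and 16.21, and KO day 21 replicate 2 read 16.3 with the others at 16. On Igf2bp3 1450687_at, KO day 21 replicate 3 read 16.95 with the others at 16.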

How the results depend on the processing

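The count of member probe sets called higher in fetal liver than in control HSCs, 13 of 25, became 5 of 7 with 1 probe set per gene. That setting has fewer features to call and gave 613 calls over all genes in either direction. In the fit of only the groups compared the count was 7 of 25, and calls over all probe sets went from 1228 to 486. Against KO, 10 became 4 of 7 with 1 probe set per gene, with 426 calls over all genes in either direction. With the replicate number as a block the counts were 10 against control and 8 against KO, and the numbers do not pair the arrays. Without each array in turn the counts ranged from 9 to 12 and from 8 to 10. In all other settings for the fetal comparisons they ranged from 9 to 14 and from 8 to 12. All calls in these settings were higher, except that Igf1r 1428967_at was lower without the farthest control arrays and without control day 7 replicate 1 (9 higher and 1 lower in each). In the KO comparisons, between control days and for the difference of the KO effects, 0 members were called in any setting; over all probe sets, leaving out arrays gave 4 to 11 calls at day 7 (1 with all arrays) and 0 to 56 at day 21 (12 with all arrays).

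Of 1202 recomputed single values, 61 changed sign, 0 of them called; the cause was not tested. With each array's floor share as covariate, Igf1r 1452108_at was 0.016 for fetal liver against control; Sox17 1421657_a_at -0.029 and -0.079 for KO at day 7 and day 21; and at day 21 Igf2 1448152_at was -0.028, Igf2r 1424111_at -0.256 and Hmga2 1450781_at -0.575. For control day 21 against day 7 it gave Igf2r 0.168 and Igf2bp3 1422610_s_at 0.319. Median centring gave Sox17 -0.014 (day 7) and -0.11 (day 21) and Igf2r -0.118 (day 21) and 0.052 (control days); quantile normalization gave Sox17 -0.018 and -0.093 and Igf2r -0.076 and 0.004; array weights gave Sox17 -0.001 (day 7) and 0.012 (difference of the KO effects), Igf2r -0.114 and 0.055, and Hmga2 -0.274 (day 21). Without the farthest control arrays, Igf1r was 0.048, Igf2r -0.443 (day 21) and 0.23 (control days), Hmga2 -0.098, Igf2 -0.041 (control days) and Sox17 0.066 (difference of the KO effects).

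Leaving out arrays gave, for fetal liver against control, -0.973 to 0.248 for Igf1r 1452982_at and -0.104 to 0.132 for Igf1r 1452108_at. For KO at day 7 it gave Sox17 -0.045 to 0.14 and Igf2r -0.112 to 0.657; at day 21 Igf2r -0.443 to 0.595, Sox17 -0.04 to 0.133 and Hmga2 -0.269 to 1.789. For the control days it gave Igf2 -0.124 to 0.29, Igf2r -0.659 to 0.379, Sox17 -0.02 to 0.158 and Igf2bp3 -0.559 to 0.205, and for the difference of the KO effects Sox17 -0.091 to 0.094, Igf2r -0.64 to 0.397 and Igf2bp3 -0.154 to 0.611. Dim members near the floor, Lin28b above all, could not be resolved.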
